A study of Homo sapiens with 42 samples.

Results

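The splicing response of MM.1S cells to interleukin-6 (IL-6) was described from 5776 splicing events, all rows of the authors' deposited table that sets MM.1S cells with IL-6 against MM.1S cells without it. The 6 tables used for this series hold 74833 distinct events. MM.1S is an established human line of multiple myeloma, in which malignant plasma cells, the makers of antibodies, accumulate. The groups compared were MM.1S cells kept for 24 hours without IL-6 (3 libraries) and MM.1S cells given IL-6 for 24 hours (3 libraries), both in the same serum-containing medium and neither carrying Cas9 or a guide RNA. Strand-specific mRNA libraries were sequenced. Further groups of 3 libraries each were used for comparison. INA-6, a second myeloma line, was kept without or with IL-6 for 24 hours. MM.1S cells expressing Cas9 received a lentiviral guide to 1 of 4 genes (sgPOU2AF1, sgELL2, sgSRSF1 and sgHNRNPL) or to EGFP as control (sgEGFP). They were selected in puromycin, and were all given IL-6, for 24 hours per the labels. The sgPOU2AF1 and sgELL2 cells each had a separate sgEGFP group, and the sgSRSF1 and sgHNRNPL cells shared another. All groups are cultured lines. The labels do not say if replicate libraries stem from separate cultures, and p-values therefore rest on a spread between libraries that may be technical.

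IL-6 is a growth and survival factor for plasma cells and myeloma cells. It binds its receptor and gp130, and the attached JAK kinases then activate STAT3, MAP kinase and PI3K signalling. Alternative splicing decides which exons, splice sites and introns a transcript keeps, and so can change a protein without changing how much RNA a gene makes. Short in-frame exons, called microexons, often alter surface loops of proteins of the cytoskeleton and of membrane traffic.

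The unit of measurement was percent spliced in (PSI), the percentage of an event's transcripts in which the exon, intron or splice site is used. Differences are in points of PSI, with IL-6 minus without IL-6. The authors listed only events with p under 0.05, so the table says nothing about events that did not reach it. An event is termed called where the deposited p was under 0.05 and the difference was at least 10 points. This p was not adjusted for the number of events. Benjamini-Hochberg adjustment was made over 58062 events, the number with a p in the complete sgSRSF1 table and an assumption for this one. The lowest adjusted p was 0.0594, so 0 events passed, while 5776 had unadjusted p under 0.05. An event-wise exact permutation test of 3 libraries against 3 cannot go below 0.1. Read numbers are not given, so depth is unknown. No expression levels are given either. Events were measured in 9 of 9 plasma cell marker genes and in 5 of 29 marker genes of other blood and stromal cells (CD3E, CD68, HBB, VIM and PECAM1), and 0 of those 29 genes had a listed event here.

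Of the 5776 listed events, 805 were called, 13.9%. With IL-6, PSI was higher in 278 of them, 4.81% of the listed events, and lower in 527, 9.12%. The 805 events lay in 589 genes, 445 of which had 1 called event, and 23 genes had called events in both directions. Set against the 58062 events with a p of the complete table, the called events were 1.39%. The smallest called difference was 10 points and the largest not called was 9.99 points, with 13 events within 0.1 points below the threshold. At 20 points or more, 44 events were higher and 72 lower.

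Among called events, skipped exons mostly had lower PSI with IL-6, while retained introns and alternative 3' splice sites mostly had higher PSI. All listed events of these types leaned the same way. Listed single exons were 579 higher and 1255 lower, and listed runs of exons 205 and 440. Listed retained introns were 621 higher and 366 lower, and listed alternative 3' splice sites 339 and 191. Among single skipped exons 15.8% of the 1834 listed were called, 69 higher and 220 lower. Among runs of skipped exons 20.6% of 645 were called, 18 higher and 115 lower. Retained introns that overlap no other feature were called in 5.37% of 987, 33 higher and 20 lower, and alternative 3' splice sites in 13.4% of 530, 46 higher and 25 lower. Alternative 5' splice sites were even, with 31 in each direction, 11.9% of 522. Introns in overlapping regions gave 36 higher and 41 lower, 14.7% of 523. First exons with an alternative 5' splice site gave 19 higher and 45 lower, 18.3% of 349, and those with an alternative 3' splice site 24 higher and 18 lower, 18.8% of 224. Mutually exclusive exons gave 2 higher and 12 lower, 8.64% of 162. The median difference over all listed events was -0.30 points, over listed single exons -3.34 points and over listed retained introns 0.25 points.

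**Figure D1:**
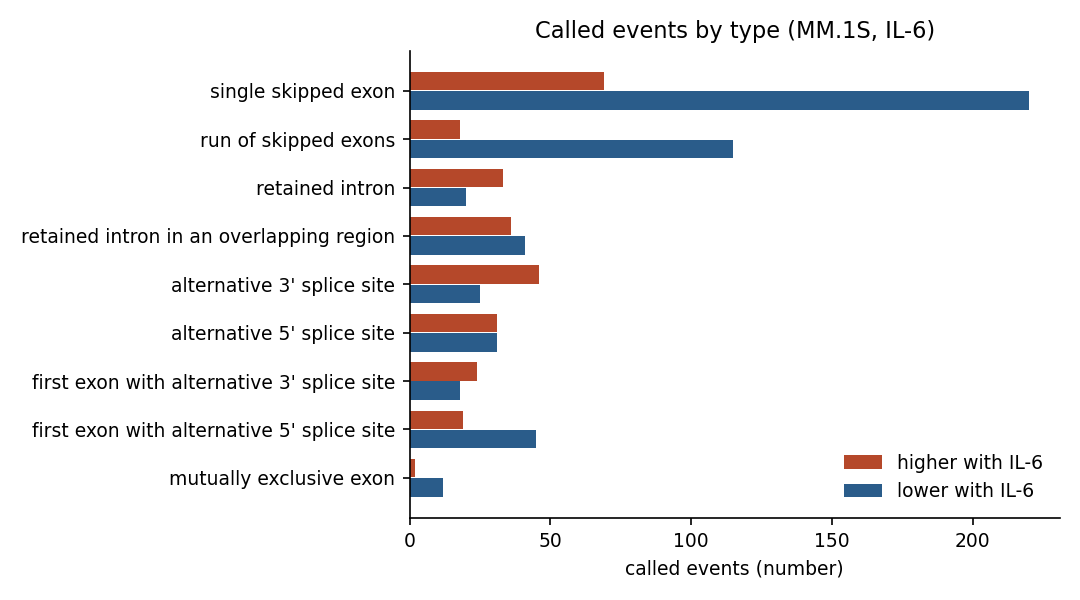
Number of called events (horizontal axis) of each type in MM.1S, split by whether PSI was higher or lower with IL-6. Single skipped exons (69 higher, 220 lower) and runs of skipped exons (18 higher, 115 lower) have the longest bars for lower PSI.

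The exon sequences below belong to called exons of at most 200 bases that are described in the text. Each is the exon in capitals with 15 bases of the neighbouring exons in lower case, read 5' to 3' on the coding strand from GENCODE release 29 transcripts (GRCh38). The first 6 are microexons whose inclusion was lower with IL-6, and PTS is the one called microexon among single exons whose inclusion was higher.
DST: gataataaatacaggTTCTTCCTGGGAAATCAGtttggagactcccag
UGGT1: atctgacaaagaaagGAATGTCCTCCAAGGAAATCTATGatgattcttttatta
FLNA: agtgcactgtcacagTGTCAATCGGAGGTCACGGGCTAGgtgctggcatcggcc
DNM2: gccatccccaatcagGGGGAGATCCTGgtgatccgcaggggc
ACACA: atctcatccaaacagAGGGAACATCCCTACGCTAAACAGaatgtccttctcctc
MTMR1: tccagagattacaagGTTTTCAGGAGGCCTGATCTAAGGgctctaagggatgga
PTS: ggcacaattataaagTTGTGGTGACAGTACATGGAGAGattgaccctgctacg
The remaining exons are longer and belong to genes described further on. All of them are coding in the transcript used. HDAC7 is shown because its exon fell with IL-6 in MM.1S and rose with IL-6 in INA-6.
MYO5A: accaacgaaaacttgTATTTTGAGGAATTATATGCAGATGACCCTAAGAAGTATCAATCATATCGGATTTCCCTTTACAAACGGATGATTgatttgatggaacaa
SREBF1: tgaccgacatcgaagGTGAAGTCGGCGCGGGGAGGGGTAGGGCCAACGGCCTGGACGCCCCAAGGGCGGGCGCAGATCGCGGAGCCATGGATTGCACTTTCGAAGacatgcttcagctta
PNISR: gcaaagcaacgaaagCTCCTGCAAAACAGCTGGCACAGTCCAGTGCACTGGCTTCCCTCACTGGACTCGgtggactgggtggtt
FOXM1: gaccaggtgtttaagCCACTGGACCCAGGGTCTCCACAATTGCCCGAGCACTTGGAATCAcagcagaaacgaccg
CLK1: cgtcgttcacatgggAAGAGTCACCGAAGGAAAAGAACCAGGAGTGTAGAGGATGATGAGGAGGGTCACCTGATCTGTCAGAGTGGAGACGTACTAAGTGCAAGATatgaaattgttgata
EIF4H: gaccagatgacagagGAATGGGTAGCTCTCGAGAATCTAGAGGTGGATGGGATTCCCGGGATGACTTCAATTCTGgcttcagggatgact
HDAC7: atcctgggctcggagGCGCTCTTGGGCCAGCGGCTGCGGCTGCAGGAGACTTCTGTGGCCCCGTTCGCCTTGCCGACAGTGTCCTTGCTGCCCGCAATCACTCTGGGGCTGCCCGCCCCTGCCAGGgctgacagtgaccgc

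Microexons were a small part of the called single exons. Counting each exon once, 11 of the 214 called exons with lower inclusion were 30 bases or shorter (5.14%), and 1 of the 68 with higher inclusion was (1.47%). The share was 3.19% of all 13471 single exons of the complete table, 3.15% of listed exons with lower inclusion (39 exons) and 2.66% of those with higher inclusion (15 exons). The 18-nt exon of DST (chr6:56468982-56468999, minus strand), a linker between cytoskeletal filaments and junctions, had PSI 72.2, 84.5 and 73.0% without IL-6 and 44.2, 46.1 and 50.4% with IL-6. All 3 libraries with IL-6 lay below all 3 without it, by 29.7 points on the means (limma adjusted p = 0.00386). Such adjusted p-values cover the 5776 listed events only, which were already selected by p, and are therefore too small. The 24-nt exon of FLNA (chrX:154357251-154357274, minus strand), the actin crosslinker filamin A, had PSI 63.3, 68.4 and 63.0% without IL-6 and 51.8, 52.6 and 52.0% with it (limma adjusted p = 0.0034). The 3 libraries with IL-6 were within 1 point of each other. In DNM2, the membrane-scission GTPase dynamin 2, a 12-nt exon (chr19:10808569-10808580, plus strand) had PSI 83.3, 85.3 and 83.4% without and 74.0, 71.6 and 68.7% with IL-6 (limma adjusted p = 0.00196). A second DNM2 exon, of 139 nt, went from 47.2% ± 1.1 to 36.4% ± 1.2 (SD, n = 3 in each group, as for all means here unless stated).

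Further microexons belonged to genes of other functions. UGGT1, the sensor of misfolded glycoproteins in the endoplasmic reticulum, has a 24-nt exon (chr2:128156392-128156415, plus strand) with PSI 27.6, 26.1 and 28.4% without and 12.6, 15.1 and 11.04% with IL-6 (limma adjusted p = 0.00169). The 24-nt exon of ACACA (chr17:37210467-37210490, minus strand), the acetyl-CoA carboxylase of fatty acid synthesis, had PSI 63.5, 64.1 and 59.7% without and 52.3, 53.4 and 50.6% with IL-6. The difference of -10.3 points lay close to the threshold. Without replicate 1 or 2 of the control libraries or replicate 3 with IL-6 it was between -9.79 and -9.48 points, no longer called. Calls with 1 library left out required a limma adjusted p under 0.05 and at least 10 points. MTMR1, a phosphoinositide phosphatase, has a 24-nt exon (chrX:150712342-150712365, plus strand), listed as mutually exclusive, that fell from 92.0% ± 2.0 to 78.9% ± 4.7. Exons of that size in called runs of exons went both ways, lower in MYSM1 and PPP3CB and higher in MVB12A and LYSMD4. The 26-nt exon of LYSMD4 rose from 13.4% ± 4.9 to 33.7% ± 1.3 (limma adjusted p = 0.00494). Named after their values were seen, the other short single exons with lower inclusion were those of MACROD1, TEAD1, ERMARD, PLSCR1, SENP6 and CSNK1G3, with differences from -10.3 points in CSNK1G3 to -22.9 points in MACROD1. The 23-nt exon of PTS (chr11:112230208-112230230, plus strand), an enzyme of tetrahydrobiopterin synthesis, rose from 19.8% ± 5.6 to 31.5% ± 2.9, and was not called without replicate 3 of the control libraries (8.82 points) or replicate 1 of those with IL-6 (10.01 points). Its length, unlike those of the 6 other exons printed above, is not a multiple of 3.

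**Figure D2:**
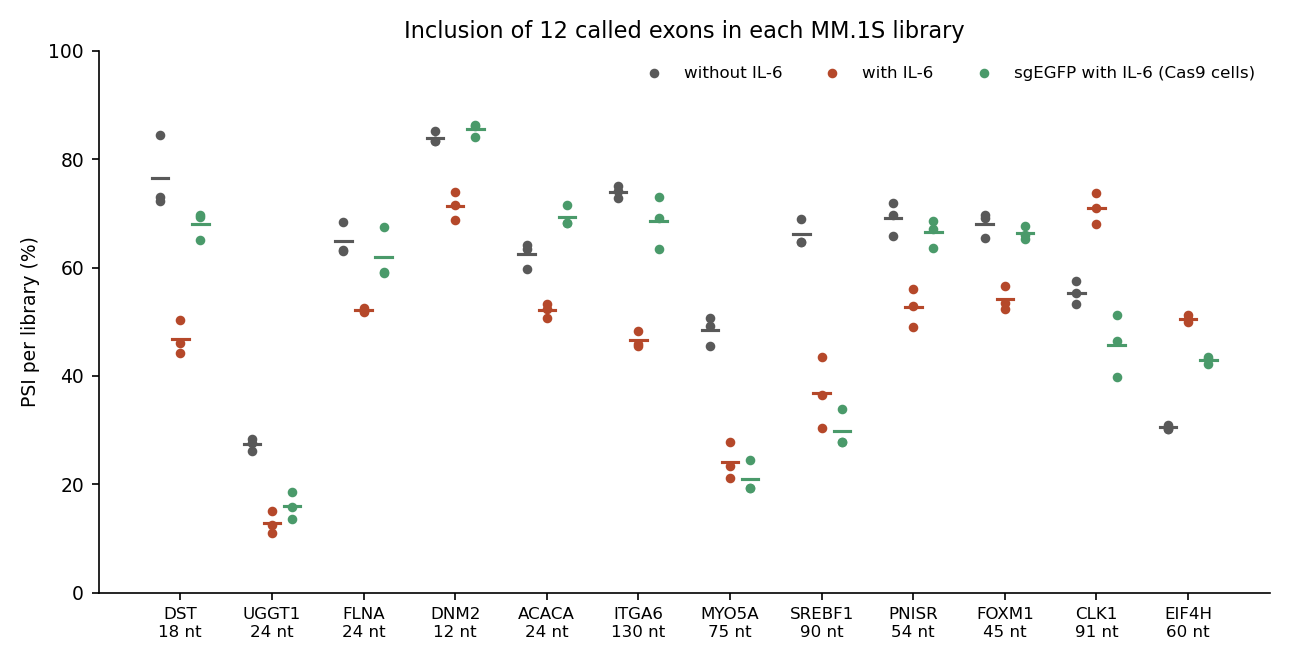
PSI (vertical axis, percent) of 12 called exons in each of 3 MM.1S libraries without IL-6, 3 with IL-6, and 3 of Cas9 cells with sgEGFP and IL-6 (points; short lines are means). The DST libraries without IL-6 lie between 72.2 and 84.5% and those with IL-6 between 44.2 and 50.4%. The sgEGFP libraries lie on the side of the IL-6 cells for UGGT1, MYO5A and SREBF1. On their means they lie on the other side for DNM2, ACACA, CLK1, ITGA6, FOXM1 and FLNA.

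Adhesion and cytoskeleton genes had the most called genes among the lists used, all with lower PSI. Of 45 such genes with measured events, 9 had called events (20%), against 5.77% of the 10209 genes with measured events: ARHGAP17, CAST, DNM2, DST, FLNA, ITGA6, MACF1, MYO5A and SYNE1. All 10 of their called events were lower, and over the list's 51 listed events the median difference was -2.17 points. Of the list's 22 genes with a listed event, 9 were called, against 18.7% of all 3149 genes with a listed event. The lists and their members were chosen with earlier results of these data known, so these shares do not test enrichment. ITGA6 encodes a subunit of laminin receptors, and its 130-nt exon (chr2:172501772-172501901, plus strand, partly coding) is kept in the A form of the cytoplasmic tail. Its PSI was 75.1, 72.9 and 74.1% without IL-6 and 45.9, 45.6 and 48.2% with IL-6, a gap many times the spread within either group (limma adjusted p = 0.000374). MYO5A, the motor myosin Va, has a 75-nt exon (chr15:52337810-52337884, minus strand) with PSI 49.2, 50.6 and 45.5% without and 27.8, 21.1 and 23.4% with IL-6. The groups did not overlap, as in 805 of 805 called events (100%) and 5775 of 5776 listed ones (100% when rounded), since the p that chose them already requires separated groups.

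Of 32 measured genes of apoptosis, a list chosen in the same way, 7 had called events (21.9%), 5 of them with lower PSI alone. The list had 18 genes with a listed event. Over all genes the called shares were 5.77% of those measured and 18.7% of those with a listed event. CASP9 and CASP10 encode initiator caspases. The CASP9 exon-run event at a 148-nt exon (chr1:15504611-15504758) had PSI 85.1, 95.4 and 88.1% without and 75.4, 67.0 and 72.1% with IL-6. In CASP10 a 92-nt exon (chr2:201205882-201205973) had PSI 80.4, 76.3 and 77.3% without and 65.2, 64.7 and 65.0% with IL-6 (limma adjusted p = 0.00199). Events of XIAP (an inhibitor of caspases), HTRA2 (a mitochondrial protease that binds such inhibitors) and BMF (a BH3-only killer protein) were lower too: the HTRA2 exon fell from 76.1% ± 1.5 to 64.1% ± 2.6. In the opposite direction, a 137-nt exon of BCL2L11, which encodes the BH3-only protein BIM, had PSI 73.9, 79.0 and 69.9% without and 81.0, 90.5 and 88.3% with IL-6, a call lost without replicate 3 with IL-6 (11.5 points). The BIRC6 event, also higher, lacks a value in 1 library with IL-6, and the XIAP event lacks one in at least 1 library.

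Among B cell and plasma cell regulators, 4 of 26 measured genes had called events (15.4%), against 5.77% of all 10209 genes with measured events. Of the list's 15 genes with a listed event, 4 were called, against 18.7% of all 3149 such genes. This list too was chosen with earlier results known. The 138-nt exon of TNFRSF13B (chr17:16952446-16952583), which encodes the receptor TACI for the survival factors BAFF and APRIL, had PSI 64.4, 63.7 and 62.5% without and 51.1, 52.2 and 52.1% with IL-6 (limma adjusted p = 0.00169). Transcripts without this exon are known to encode a short form of TACI with one of its ligand-binding repeats missing. IKZF3, the plasma cell transcription factor Aiolos, kept a 117-nt exon less often, from 91.9% ± 0.80 to 79.1% ± 1.8, and FCMR, the receptor for the Fc part of IgM, fell from 62.0% ± 4.2 to 48.5% ± 3.9. MAF, an oncogenic transcription factor in myeloma, rose at an alternative 3' splice site, with PSI 16.2, 14.1 and 13.02% without and 28.2, 25.8 and 25.3% with IL-6. None of the 9 plasma cell markers, 4 of which had a listed event, had a called event. With a share of 5.77% over all measured genes, 0 of 9 is no result about these markers.

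Signalling genes changed in both directions. The shares below stand beside 5.77% of all 10209 genes with measured events. These lists too were chosen with earlier results known. Of 28 measured genes on a list for the IL-6 receptor, JAK-STAT and their regulators, 2 had called events (7.14%). The list held CRTC1, which is a CREB coactivator rather than a JAK-STAT gene. CRTC1 rose at an alternative 3' splice site from 17.2% ± 5.9 to 47.8% ± 5.0. An exon of the cytokine IL15 fell from 55.1% ± 11.4 to 27.4% ± 12.6. The IL15 call was lost without replicate 1 or 2 of the control libraries (-24.0 and -24.8 points) or replicate 3 with IL-6 (-28.3 points). Of 33 genes of MAP kinase, PI3K and mTOR signalling, 5 were called (15.2%): BRAF (not called without replicate 2 with IL-6, at -9.27 points), MAPK8 and TEC with lower PSI and MAPK9 and TBC1D1 with higher. TBC1D1, a GTPase-activating protein downstream of AKT, had PSI 32.8, 37.9 and 29.7% at an alternative 5' splice site without IL-6 and 69.8, 66.9 and 66.9% with it (limma adjusted p = 0.000641). For TEC, a cytoplasmic tyrosine kinase, the values were 76.6, 79.1 and 82.0% without and 53.7, 52.2 and 46.1% with IL-6. The listed segments of both splice-site events matched no annotated exon exactly. Of 28 NF-kappaB and TNF receptor genes, 2 were called: the kinase IKBKB fell from 85.3% ± 4.0 to 69.2% ± 6.8, and IRAK4, a kinase of Toll-like receptor signalling, rose from 46.0% ± 2.9 to 56.2% ± 3.6. The IRAK4 difference was 8.68 to 9.75 points, not called, without replicate 1 of the control libraries or replicate 2 or 3 with IL-6.

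Few genes of the splicing machinery itself were called, on lists chosen with earlier results known. Of 26 measured SR proteins and their kinases, 2 were called (7.69%), of 42 hnRNP and other splicing regulators 4 (9.52%), and of 43 core spliceosome genes 3 (6.98%). The share over all measured genes was 5.77%. Among genes with a listed event the counts were 2 of 15, 4 of 25 and 3 of 18, against 18.7% of all such genes. Counts this small are no result about the machinery as a class. CLK1 phosphorylates SR proteins, and its 91-nt exon (chr2:200860125-200860215, minus strand), needed for an active kinase, had PSI 53.3, 55.3 and 57.5% without and 73.8, 71.0 and 68.0% with IL-6. The groups did not overlap, as in all 805 called events (limma adjusted p = 0.00265). PNISR, an SR-related protein, kept its 54-nt exon (chr6:99403829-99403882, minus strand) less often, with 71.9, 65.8 and 69.8% without and 52.9, 49.0 and 56.0% with IL-6. The 105-nt exon of ZNF638, an RNA-binding protein, fell from 91.4% ± 0.54 to 80.7% ± 0.51, and a first-exon splice site of HNRNPA2B1 fell from 64.2% ± 1.1 to 51.5% ± 1.3. EIF4H, a cofactor of the helicase in translation initiation, kept its 60-nt exon (chr7:74190247-74190306, plus strand) more often, with 30.3, 30.3 and 31.0% without and 49.9, 51.3 and 50.5% with IL-6 (limma adjusted p = 0.000443).

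In the remaining lists the counts were 8 of 51 chromatin regulators (15.7%), 5 of 33 genes of RNA decay and snoRNA hosts (15.2%), 3 of 26 antigen presentation and interferon genes (11.5%), 3 of 29 lipid and sterol genes (10.3%), 4 of 51 cell cycle genes (7.84%), 3 of 48 DNA repair genes (6.25%), 2 of 43 genes of endoplasmic reticulum quality control (4.65%) and 1 of 33 genes of transcription elongation (3.03%). Over all genes with measured events the share was 5.77%, and these lists too were chosen with earlier results known. In FOXM1, a transcription factor of the G2 and M phases, a 45-nt exon (chr12:2865355-2865399, minus strand) had PSI 65.4, 69.6 and 69.1% without and 52.4, 53.4 and 56.6% with IL-6. This is 1 of 3 called events of FOXM1, which did not all go in the same direction, and the others are not reported here. SREBF1, the master regulator of lipid synthesis, kept its 90-nt exon (chr17:17823518-17823607, minus strand) less often, from 66.1% ± 2.5 to 36.8% ± 6.6. Of the 10 called events of chromatin regulators, 4 were higher and 6 lower. CBFA2T2, a transcriptional corepressor, rose at an alternative 3' splice site listed as 2 events, with segments as long as 82357 and 49375 nt. Its PSI was 22.4, 24.1 and 14.9% without and 55.9, 57.1 and 48.6% with IL-6. ASXL1, a Polycomb-associated protein, had an exon that fell from 61.7% ± 1.6 to 45.5% ± 3.5. An exon of KMT2E, a protein of the MLL family, rose from 19.3% ± 1.1 to 30.4% ± 3.0, a call lost without replicate 1 with IL-6 (9.37 points). Outside that list, CHD3 and MTA1 encode subunits of the NuRD chromatin complex. The 164-nt CHD3 exon fell from 75.8% ± 3.6 to 51.1% ± 4.1. A 51-nt MTA1 exon was listed as 3 called events, with differences of -25.5, -13.7 and -13.6 points, the largest from 56.1% ± 1.5 to 30.6% ± 5.1. The non-coding snoRNA host SNHG1 kept a 51-nt exon less often, from 54.8% ± 3.3 to 32.8% ± 1.7.

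Several genes carried many called events, which largely describe one region each. MRPS25, a mitochondrial ribosomal protein, had 13, all introns in overlapping regions of chr3:15043023-15049765 (GRCh38), with differences from -13.9 to -10.7 points. The long non-coding RNA TUG1 had 9, of which 8 were higher, and FASTK, a regulator of mitochondrial RNA, had 6, all lower, from -17.8 to -14.2 points. In all 15 genes had 4 or more called events, and events of 1 gene are not independent. Counted once per gene by its largest event, 65.4% of 589 called events were lower, against 65.5% of all 805.

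Direction went with the starting level. Of called single exons with PSI below 20% without IL-6, 22 were higher and 2 lower. Between 20 and 40% the numbers were 28 and 29, between 40 and 60% 11 and 38, and between 60 and 80% 8 and 81. Above 80% 0 were higher and 70 lower. An exon near either limit can move 10 points in one direction only, so the starting level and the direction cannot be told apart in the outer classes.

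**Figure D3:**
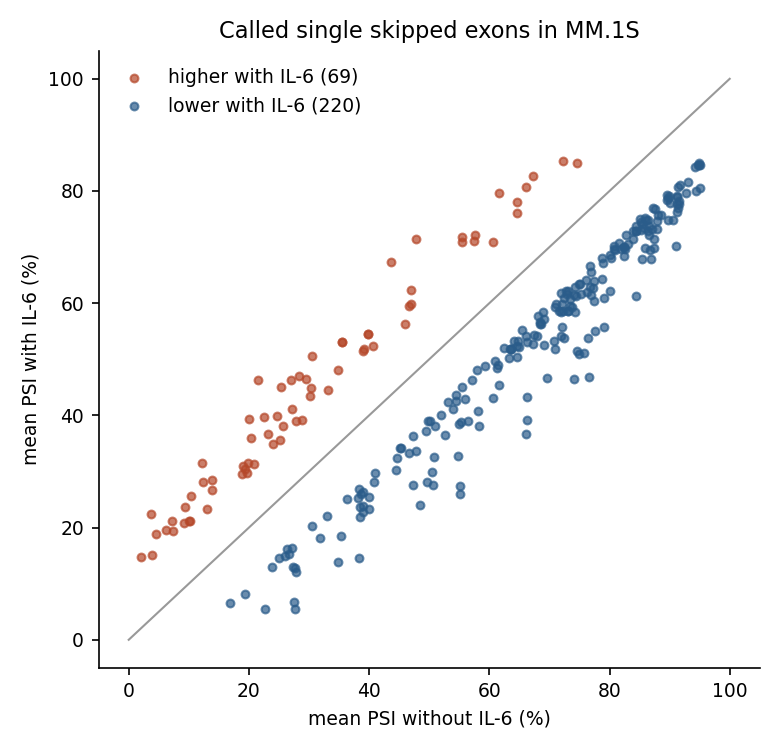
Mean PSI without IL-6 (horizontal axis, percent) against mean PSI with IL-6 (vertical axis, percent) for the 289 called single skipped exons in MM.1S; the line marks equal PSI. The 220 points below the line lie mostly at the right, and none of the 69 points above it starts above 80%.

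Exons with lower inclusion had a larger coding share and a higher GC content than those with higher inclusion, among called and among all listed exons. This is a description with no test. Counting each exon once, 214 exons were lower, with a median length of 108 nt, and 55.6% had a length divisible by 3. Of those matched to the annotation, 79.9% were coding, and median GC content was 54%. The 68 exons with higher inclusion had a median length of 114 nt, 47.1% were divisible by 3, 39.7% of the matched ones were coding and median GC content was 47.8%. Among the 1237 listed lower exons, 51.4% were divisible by 3, 76.5% of the matched ones were coding and median GC content was 52.5%. For the 564 listed higher exons these values were 39.2%, 32.2% and 48.3%. All 13471 single exons of the complete table had a median of 116 nt, 44.3% divisible by 3, 53.6% coding and 49.6% GC. Median PSI without IL-6 was 72.1% for the lower and 27.5% for the higher exons, against 31.3% in sgEGFP cells for all exons of the complete table, and the part of the starting level in these differences was not tested. The authors' tag for nonsense-mediated decay marked 12 of the 68 higher exons (17.6%) and 10 of the 214 lower ones (4.67%), against 24.1% of all single exons of the complete table, 25.2% of listed higher and 9.62% of listed lower exons. Called retained introns with higher PSI had a median length of 280 nt and rose from a median of 12.5% to 27.4%. Those with lower PSI had a median length of 476.5 nt and fell from 49.8 to 31.5%. Median lengths of all listed retained introns were 286 nt for higher and 417 nt for lower PSI.

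Levels in other MM.1S cells with IL-6 were set beside these. The sgEGFP libraries differ from both IL-6 groups in carrying Cas9, a lentivirus and a guide, and which sequencing provider made each library is not given, so these and the IL-6 effect cannot be told apart. Of 648 called events also measured in the sgEGFP libraries of the sgSRSF1 and sgHNRNPL tables, 268 (41.4%) lay on the IL-6 side of the midpoint between the groups without and with IL-6, against 49.3% of 4693 listed events. Among called events that rose with IL-6 the share was 53.0% of 219, and among those that fell 35.4% of 429. For the 185 single exons that fell, mean PSI was 69.6% without IL-6, 55.3% with it and 65.8% in the sgEGFP cells. The sgEGFP libraries of the sgPOU2AF1 table, which lists selected events only, lay on the IL-6 side in 84 of 120 called events (70%; 69.5% of 770 listed events), and those of the sgELL2 table in 24 of 42 (57.1%; 66.8% of 374). Single genes differed. For SREBF1 the sgEGFP values were 27.9, 34.0 and 27.8%, at or below the cells with IL-6, and for CLK1 they were 39.7, 51.2 and 46.4%, below the cells without IL-6.

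Targeting of POU2AF1, a B-cell coactivator of octamer transcription factors, went with differences opposite to those of IL-6 in most events listed in both tables. Of the 805 events, 120 were listed with p under 0.05 in the sgPOU2AF1 table, and 110 of the 120 (91.7%) had a difference opposite to that of IL-6. The same held for 565 of 650 listed but not called events (86.9%). Of the 120, 48 were also called there, against 10.2% of the 4151 listed events of that table, with 44 opposite and 4 in the same direction. The median difference with sgPOU2AF1 was 8.38 points for events that IL-6 lowered and -9.76 points for those it raised. The 4 exceptions were a splice site of TTBK2 listed as 2 events, an exon of ST3GAL6 and one of MVB12A, named after their values were seen.

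In FLNA the 24-nt exon printed above had PSI 56.8, 57.5 and 50.4% in sgEGFP cells and 66.8, 66.0 and 66.8% in sgPOU2AF1 cells, both with IL-6. The sgPOU2AF1 values thus lay within the range of the cells without IL-6 (63.0 to 68.4%). For the EIF4H exon the sgEGFP values were 53.0, 53.6 and 53.6% and the sgPOU2AF1 values 43.0, 42.7 and 41.1%, between the 30.5% ± 0.42 of cells without IL-6 and the 50.6% ± 0.71 of cells with it. The PNISR exon went from 58.7, 58.2 and 51.2% to 72.2, 70.7 and 66.4%, and the CASP10 exon from 70.1, 68.6 and 66.3% to 82.1, 77.6 and 78.1%, beside means of 69.2 and 78.0% in cells without IL-6. MAF fell from 24.6, 26.4 and 31.6% to 18.1, 13.5 and 14.7%. LNPK, a protein that shapes the endoplasmic reticulum, had a 147-nt exon that rose with IL-6 from 27.0% ± 1.9 to 46.2% ± 2.0 and fell with sgPOU2AF1 from 49.4% ± 7.6 to 31.9% ± 5.6. The 2 comparisons share no library.

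**Figure D4:**
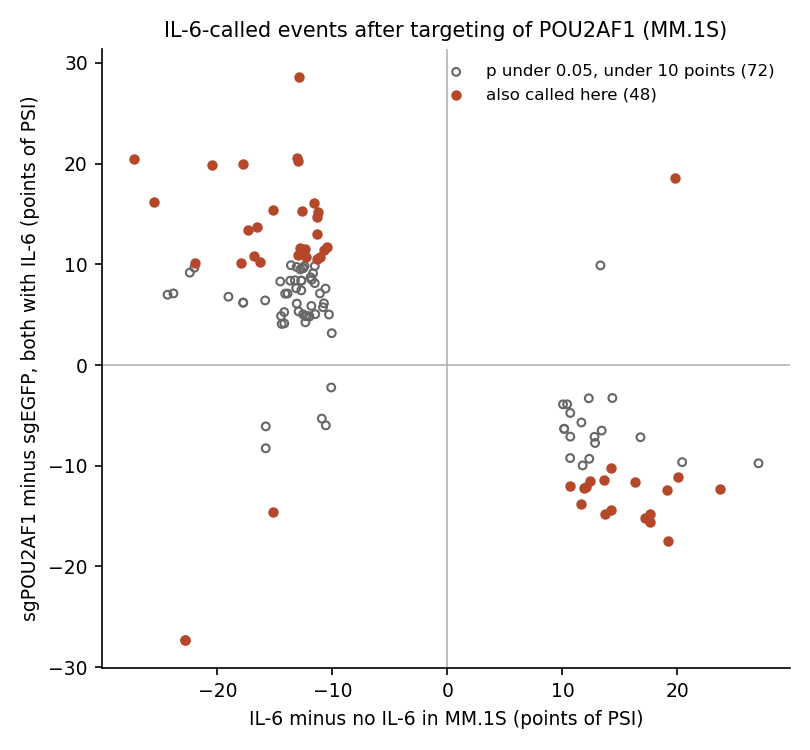
Difference of PSI with IL-6 in MM.1S (horizontal axis, points) against the difference between sgPOU2AF1 and sgEGFP cells, both with IL-6 (vertical axis, points), for 120 IL-6-called events listed in both tables; filled points were also called with sgPOU2AF1. Most points lie in the upper left and lower right, where the 110 opposite events fall.

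Values for the other guides were set beside these in the same way. ELL2 is an elongation factor of RNA polymerase II. With sgELL2, 42 called events were listed, 24 in the direction of IL-6 (57.1%) and 18 opposite. Over all 374 events listed for both, 53.7% went in the direction of IL-6. Of the 42, 13 were called there, against 11% of that table's events, 9 in the direction of IL-6 and 4 opposite. For SRSF1 and HNRNPL, RNA-binding regulators of splicing whose tables are complete, 608 and 629 of the called events were measured. Of these, 143 (23.5%) were called with sgSRSF1, against 5.75% of all its events with a p, 66 in the direction of IL-6 and 77 opposite. By direction, events that IL-6 raised were 15 the same and 39 opposite, and events that it lowered 51 the same and 38 opposite. With sgHNRNPL 61 (9.70%) were called, against 1.81% of all its events with a p, 28 in the direction of IL-6 and 33 opposite, and among single exons 5 and 14. Among events with p under 0.05 with sgSRSF1, 47.7% of 197 called events went in the direction of IL-6, against 49.5% of all 1290 listed. For sgHNRNPL the shares were 49.0% of 98 and 53.9% of 623. No share over all listed events is at hand for the subsets by direction or type. Events called for IL-6 were selected for large differences, and the part of event depth in these shares was not tested. Both tables have the same sgEGFP libraries.

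Individual exons show both patterns. With sgSRSF1 the ITGA6 exon rose from 68.5% ± 4.8 to 92.6% ± 1.8 and the HDAC7 exon from 24.9% ± 2.6 to 54.0% ± 0.86. Both went against the direction of IL-6, and the CLK1 exon fell from 45.8% ± 5.7 to 31.7% ± 4.9. The sgEGFP mean of ITGA6, with IL-6, was nearer to the 74.0% of unedited cells without IL-6 than to the 46.6% with it. The FLNA exon fell with sgSRSF1, as it did with IL-6, from 61.9% ± 4.9 to 34.9% ± 1.5. With sgHNRNPL the CHD3 exon rose from 73.6% ± 4.0 to 91.1% ± 2.5 and the 45-nt FOXM1 exon from 66.3% ± 1.3 to 81.3% ± 2.5, against IL-6, while the HNRNPA2B1 splice site fell from 57.5% ± 1.1 to 39.1% ± 1.5, with it.

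In INA-6 the direction of the IL-6 response was shared for most events found in both tables. Of the called events, 110 were listed with a p in INA-6, and 79 (71.8%) moved the same way, the same share as in the 538 listed but not called events (71.7%). Of the 110, 38 were called in INA-6 too, against 12.2% of its 4729 listed events with a p, 29 in the same direction and 9 in the opposite. By type, 37 of 46 called single exons moved the same way (80.4%), against 76.2% of 223 listed in both tables, and 3 of 11 called runs of exons (27.3%, in 8 genes), against 68.5% of 73. The FLNA exon fell in INA-6 from 75.8% ± 0.79 to 63.7% ± 1.1, a difference of -12.1 points against -12.8 points in MM.1S, and the interaction of cell line and IL-6 had limma adjusted p = 0.698. For CASP10 the differences were -12.6 points in INA-6 and -13.01 points in MM.1S (interaction, limma adjusted p = 0.534). Skipping of the SREBF1 exon was larger in MM.1S, by -29.4 points against -14.9 points in INA-6 (interaction, limma adjusted p = 0.0192), and so was that of SNX22, a sorting nexin, by -23.8 against -16.1 points (limma adjusted p = 0.0434). Among the 38 events, 15 had an interaction with adjusted p under 0.05, over 624 events in the fit. These too were selected by p in both lines.

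**Figure D5:**
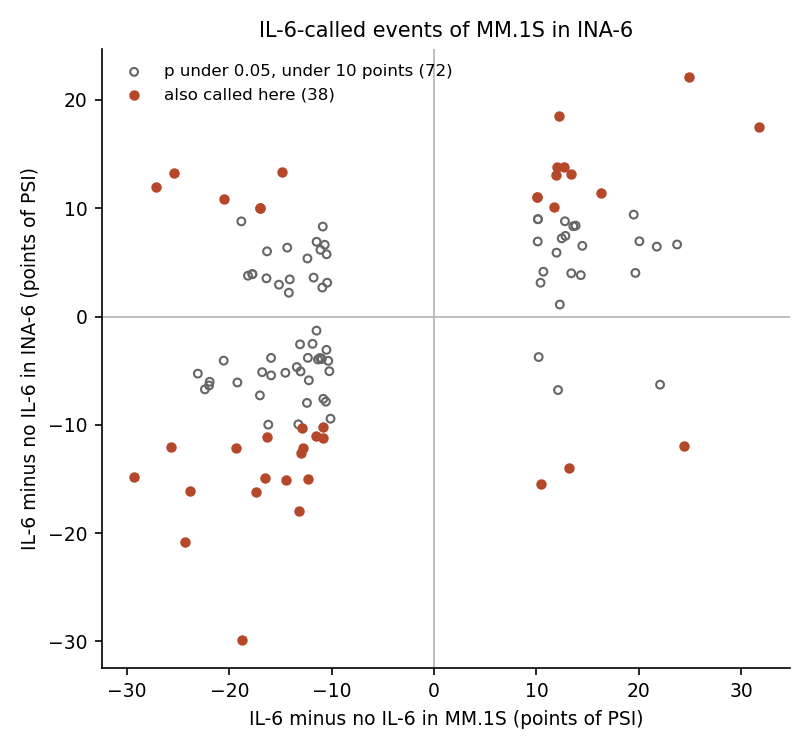
Difference of PSI with IL-6 in MM.1S (horizontal axis, points) against that in INA-6 (vertical axis, points) for 110 called events of MM.1S listed in both tables; filled points were also called in INA-6. The 79 points of the same direction fill the lower left and upper right.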

How the data were processed

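Reads were aligned to GRCh38 with STAR 2.7.10b and handled with SAMtools 1.19.2, per the submitters' processing notes. No label or header names the splicing caller. The authors' deposited tables give for each event the PSI of every library (a percent) and a signed difference score, with a p-value for all or part of the rows. The p-value column is headed as adjusted, but matched an unadjusted unequal-variance two-sided p recomputed from PSI within 1% in 100% of events. The deposited difference score matched recomputed means within 0.005 points. Read counts were not used here, so depth per library is unknown.

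Groups follow the labels, and replicate numbers of libraries are their order within a table cell. An event was called at a p under 0.05 and a difference of at least 10 points. Events were matched between 6 tables, and 2 tables on guides in INA-6 were not used. limma 3.58.1 (R 4.3.3) on logit PSI, clipped to 1 and 99%, was adjusted by Benjamini-Hochberg over the 5776 listed events. Calls with 1 library left out used this adjusted p, refitted without that library, in place of the deposited p. The interaction of cell line and IL-6 was fitted for 624 events in both IL-6 tables, leaving out those without variation after clipping. Exons were annotated with GENCODE release 29. Named genes were the largest differences of each type, called members of the gene lists, events called in both lines and genes with 4 or more called events. The sequence and values of 1 exon are not reported here. Other events named are said to be chosen later or illustrate a count. Members and lists were chosen with earlier results of these data known. The call rule and limma were tested on simulated data. The 2 library providers are not assigned to libraries in the labels, so a batch could not be tested. Python 3.11.15, pandas 2.3.3, numpy 2.4.6, scipy 1.17.1 and matplotlib 3.10.9 were used.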

Additional observations from a re-analysis of the deposited data

Results flagged for a closer look

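Events in 7 genes were called in both cell lines with opposite directions, and their interaction of cell line and IL-6 passed an adjusted p of 0.05 in limma. The exon of HDAC7, a class IIa histone deacetylase, differed by -14.8 points in MM.1S and by 13.4 points in INA-6 (limma adjusted p = 5.66e-06). In PHYKPL, a lysine-degrading enzyme, 2 neighbouring runs of exons differed by -25.4 and -20.5 points in MM.1S and by 13.3 and 10.8 points in INA-6 (limma adjusted p = 0.000114 and 0.000659). An alternative 3' splice site of BRD1, a chromatin reader, differed by 13.2 points in MM.1S and -14.0 points in INA-6 (limma adjusted p = 0.000132). A retained intron of the antisense gene PINK1-AS differed by 24.5 and -11.98 points (limma adjusted p = 0.000132), the TNRC6C exon, of a miRNA silencing factor, by -27.2 and 11.96 points (limma adjusted p = 0.00113), and a first-exon splice site of INTS14, an Integrator subunit listed as 2 events, by -17.0 and 10.0 points (limma adjusted p = 0.00357). The unnamed gene ENSG00000284906 had an exon at 10.4 and -15.5 points (limma adjusted p = 0.0015). Without 1 MM.1S library the MM.1S call was lost for ENSG00000284906 (8.63 points without replicate 2 of the controls, 8.85 points without replicate 1 with IL-6) and INTS14 (-14.4 points without replicate 2 of the controls). The events compared were selected by p in both tables, and causes were not tested.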

How the results depend on the processing

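At minimum differences of 5 and 20 points, 2218 events (745 higher, 1473 lower) and 116 events (44 higher, 72 lower) were called, and with no minimum 5776 (2737 higher, 3039 lower). At p under 0.01, 307 were called (79 higher, 228 lower), and after adjustment over the events of the complete sgSRSF1 table there were 0 calls (0 higher, 0 lower). The share of lower events was 52.6% with no minimum and 74.3% at p under 0.01, against 65.5%. limma on logit PSI called 802 and on untransformed PSI 805. Leaving out each library in turn, with limma adjusted p under 0.05 in place of the deposited p, gave 773 to 809 calls. Of these, 254 to 269 were higher and 510 to 540 lower (65.9 to 67.2% lower), and 697 to 732 were among the 805. The listed events were selected by p with every library included, so these numbers do not show stability. Of 236 named events, 62 lost the call at least once and 0 reversed.

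The share of called events on the IL-6 side, 41.4%, was 70% and 57.1% with the sgEGFP libraries of the sgPOU2AF1 and sgELL2 tables and 33.7% at 20 points or more. For single exons that fell it was 29.7%, against 58.3%, 40% and, with sgEGFP library 2 alone, 38.8%. The percentage of higher exons with a length divisible by 3 was 75% of 4 exons at 20 points, against 46.4% of 69 events. The causes were not tested. Alternatives chosen after seeing the data gave 91.7% opposite events for sgPOU2AF1 among events called in both and 89.9% with 1 event per gene. The directions cannot change when 1 library is left out where groups do not overlap, so their unchanged shares (71.8% the same in INA-6, 91.7% opposite for sgPOU2AF1) say nothing of stability. No paired analysis was possible because the values of a group's libraries carry no replicate number in the tables. Depth is unknown, and 3 libraries a group limit precision.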
